A study of Mus musculus with 2 samples.

Results

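Cxcr6-negative CD8 T cells are the T cells of this liver data set that carried a CD8 transcript and no transcript of Cxcr6, the receptor that marks the large resident T cell pool of the mouse liver. They were chosen by their UMIs (unique molecular identifiers, each standing for 1 captured RNA molecule). A barcode had to show 200 genes or more and a mitochondrial share of no more than 25%. It needed at least 2 UMIs in sum of Cd3d, Cd3e, Cd3g, Trac and Trbc2, no UMI of the B cell gene Cd79a, the Kupffer cell gene Clec4f or Cxcr6, and at least 1 UMI of Cd8a or Cd8b1. In all, 84 cells met them, of 604 T cells, 8172 kept cells and 10616 barcodes. The UMIs of those 10 genes chose the cells, and their values are a description.

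Liver cells of C57BL/6 mice, a mixed suspension of hepatocytes and non-parenchymal cells, were sequenced in 2 droplet single-cell RNA libraries. The pIVCL library came from mice labelled with partial inferior vena cava ligation, a narrowing of the large vein into which the liver empties, so that blood backs up and portal pressure goes up. The ligation was placed at 8 to 10 weeks of age and lasted 6 weeks. The Control library carries the genotype label Control and a title that calls it healthy, although the growth protocol given with it also describes the ligation. Whether the control animals had a sham operation, their age, and the number of animals behind each library are not given in the sources used here. With 1 library per group there was no replicate and no test, so each difference below compares these 2 libraries, not the conditions, and the 95% intervals cover counting error only.

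As background, CD8 T cells recognise peptides on MHC class I through a receptor that works with a CD8 coreceptor, made of a pair of alpha chains or of an alpha and a beta chain, encoded by Cd8a and Cd8b1. Naive and central memory cells circulate between blood and lymph nodes with the help of Ccr7 and depend on the transcription factors Tcf7 and Lef1. Effector cells make cytotoxic granule proteins and chemokines such as Ccl5, and cells that stay in the liver use CXCR6, whose ligand is made by sinusoidal endothelium.

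The 84 cells were 12 in the Control library and 72 in the pIVCL library, which together held 72872 and 213599 UMIs. The Control cells were the deeper ones, with a median of 5901.5 UMIs (range 1139 to 9490) and 1844.5 genes. The pIVCL cells had a median of 2763 UMIs (675 to 10816) and 1184 genes. The same gap ran through all kept cells (medians of 5268 and 2005 UMIs), and 13 barcodes occurred in both libraries, none of them a barcode of these 84 cells.

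Cd8b1 had 45 UMIs in 9 of the 12 Control cells (618 CPM, UMIs per 1000000 UMIs of these cells) and 143 UMIs in 53 of the 72 pIVCL cells (669 CPM). Cd8a had 31 UMIs in 10 Control cells (425 CPM) and 103 in 56 pIVCL cells (482 CPM). Both chain genes were seen in 7 Control and 37 pIVCL cells, Cd8a alone in 3 and 19, and Cd8b1 alone in 2 and 16. The CD8 genes therefore sat at like levels in both libraries, a description of genes the rule used. Cd8a and Cd8b1 lie on chromosome 6 (71373427 to 71379173 and 71322788 to 71337494) and Cxcr6 on chromosome 9 (123806475 to 123811760), all on the plus strand of GRCm38. Cd3d, a chain of the T cell receptor complex, was at 508 and 726 CPM, and Trac, the constant part of the receptor's alpha chain, at 384 and 407 CPM.

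Genes that mark other T cells and NK cells were checked next. Cd4, Foxp3 and Zbtb7b, which mark helper and regulatory T cells, had no UMI in any of the 84 cells, which allows a share of up to 3.57% of cells with a UMI and does not limit the share that express them. Ikzf2, a factor of regulatory and innate-like T cells on the same list as Cd4 and Foxp3, was seen in 4 Control and 13 pIVCL cells (14 and 15 UMIs). Tyrobp and Fcer1g, adaptors of NK and innate-like cells, were seen in 2 Control cells each and in 7 and 6 pIVCL cells. Trdc, the constant part of the delta chain of gamma-delta T cells, was seen in 2 Control and 2 pIVCL cells, and in 1 of the latter with 9 UMIs in a cell without Cd8a. Ncr1, an NK cell receptor, was seen in 0 Control cells and 1 pIVCL cell, and Klrb1c in 1 and 4. Tcf7, a label marker that the rule did not use, was seen in 10 of 12 Control cells and 41 of 72 pIVCL cells, against 2 of 132 and 5 of 956 B cells, which should lack it, at medians of 3292.5 and 1877 UMIs. After thinning every cell to 800 UMIs, which 12 Control and 70 pIVCL cells could give, Tcf7 was seen in 8.33% and 27.1% of the cells, so no order was read from the higher unthinned share of the Control cells.

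At the edges of the rule, 6 pIVCL cells and 0 Control cells held exactly 2 UMIs of the 5 T cell genes, and 2 pIVCL cells that met the rest held 1. A single CD8 UMI admitted 22 pIVCL and 2 Control cells. Just outside the Cxcr6 limit lay 17 pIVCL and 5 Control T cells with a CD8 UMI and exactly 1 Cxcr6 UMI. Only 1 Control cell lay between 20% and 25% mitochondrial UMIs. The Cd79a and Clec4f conditions each kept out 3 pIVCL cells and 0 Control cells that met everything else.

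Cxcr6-negative CD8 T cells made up more of the T cells in the pIVCL library. They were 5.38% of Control T cells (12 of 223, exact binomial interval 2.81% to 9.21%) and 18.9% of pIVCL T cells (72 of 381, 15.1% to 23.2%), a ratio of 3.51 (conditional exact interval 1.89 to 7.11). Of all kept cells they were 0.440% and 1.32%, a ratio of 3.00 (1.62 to 6.08). The Cxcr6-positive T cells went the other way, from 81.6% to 44.4% of T cells. Cxcr6-negative T cells with no CD8 UMI were 13.0% and 36.7%, a ratio of 2.83 (1.88 to 4.37), so the larger share was not particular to cells with a CD8 UMI. B cells were likewise 4.84% and 17.6% of kept cells.

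**Figure D1:**
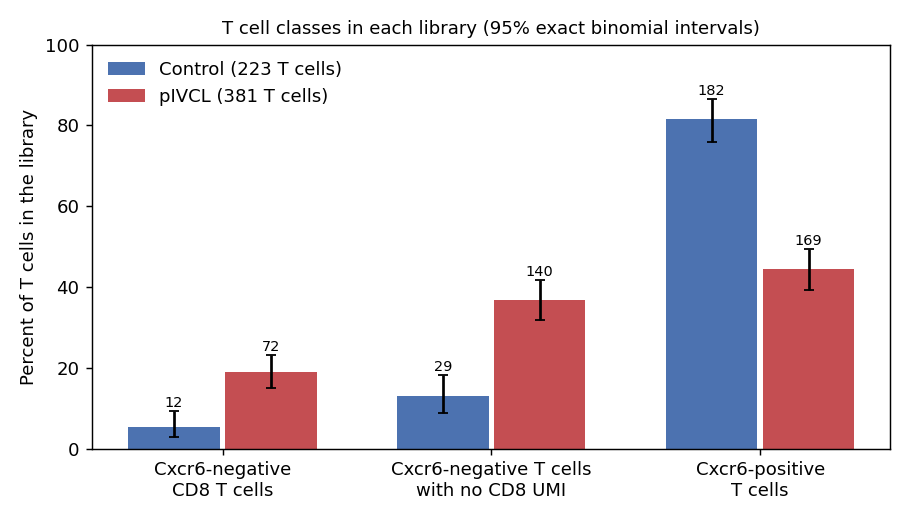
Share of each library's T cells (y axis, percent) that fell into 3 classes, as bars with 95% exact binomial intervals and the number of cells above each bar, Control in blue and pIVCL in red. The 12 Control and 72 pIVCL cells of the first class make up 5.38% and 18.9% of T cells, and the intervals of the 2 libraries do not overlap in any class.

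Depth can set whether a CD8 or Cxcr6 transcript is seen. A CD8 UMI was present in 11.7% of Control T cells (26 of 223) and 27.0% of pIVCL T cells (103 of 381), in the shallower library more often. Among those CD8-bearing T cells, Cxcr6 was not seen in 46.2% (12 of 26, interval 26.6% to 66.6%) and 69.9% (72 of 103, 60.1% to 78.5%). The ratio was 1.51 (0.816 to 3.07). That interval includes 1, but it treats counts as rates and is too wide for shares this large, so nothing was read from it. If the Cxcr6-positive T cells with a CD8 UMI were read at 2763 UMIs per cell, the pIVCL median, 32.3% of the 14 Control cells and 24.4% of the 17 deep enough pIVCL cells would be expected to show no Cxcr6. Some of the 84 cells may thus carry Cxcr6 RNA that was not captured, and how many was not tested. With every T cell thinned to 800 UMIs before the rule was applied, the share was 4.05% in Control (7 of 173 T cells) and 17.6% in pIVCL (43 of 245), a ratio of 4.34 (1.93 to 11.4). At 2000 UMIs, where 13 Control and 62 pIVCL cells met the rule because some lost their Cxcr6 UMIs, the ratio was 3.59 (1.95 to 7.12). The pIVCL share was also the larger one at both of these depths, on 7 and 13 Control cells. At 800 UMIs, Cxcr6 was seen in 46.2% of Control and 19.6% of pIVCL T cells, beside 81.6% and 44.4% unthinned.

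Set against Cxcr6-positive T cells of the same library, the 84 cells had higher levels of naive and central memory genes and lower levels of residency genes. Of the Cxcr6-positive T cells, 14 of 182 in Control and 31 of 169 in pIVCL held a CD8 UMI. These classes thus differ in CD8 as well as in Cxcr6, and the parts of CD8 and Cxcr6 in the differences below cannot be told apart. The residency list summed to 1194 against 2147 CPM in Control and to 1302 against 2874 CPM in pIVCL. The homing receptor list was close to even, at 2100 against 2084 CPM and 1966 against 1857 CPM. Levels were compared as log2 ratios with 20 CPM added to both sides, over genes with at least 20 summed UMIs. In Control 6749 genes were measured, of which 3.07% were at least 2-fold higher and 15.1% at least 2-fold lower in the Cxcr6-negative CD8 cells. In pIVCL 6326 genes were measured, of which 0.806% were higher and 9.17% lower. Of 5780 genes with at least 20 UMIs in each library, 18 were higher in both, 146 were lower in both and 31 were past 2-fold in opposite directions.

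Ccr7, the receptor that guides T cells into lymph nodes, had the highest log2 ratio averaged over both libraries. It was at 384 CPM in the Control cells against 13.1 CPM in Cxcr6-positive T cells, a ratio of 29.3 (15.1 to 58.9). In pIVCL it was at 192 CPM against 10.4 CPM, a ratio of 18.5 (8.23 to 48.9). B cells make Ccr7 too, at 337 CPM in both libraries.

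Tcf7, a transcription factor of naive and memory T cells, was at 247 CPM in Control and 346 CPM in pIVCL, 7.43 and 4.25 times its level in Cxcr6-positive T cells. Lef1, its relative, was at 439 and 257 CPM, with ratios of 5.45 (3.53 to 8.23) and 5.43 (3.45 to 8.68) that were nearly equal. In B cells, which lack them, Tcf7 and Lef1 were at most at 4.60 CPM. Also among the 10 highest in both libraries were Actn1, a cytoskeletal crosslinker, Cmah, an enzyme that modifies sialic acid, Pik3ip1, an inhibitor of PI3 kinase, the receptor gene Treml2, and Sidt1 and Fam241a. Dapl1, a gene typical of naive CD8 T cells, was 10.1 and 8.91 times higher. Of the 16 genes of the naive and central memory list, 9 in Control and 7 in pIVCL were past 2-fold higher and none was lower, with medians of 1.83 and 0.87 on the log2 scale beside -0.19 and -0.21 over all genes measured.

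Residency genes were lower. Of the measured genes of that list, 8 of 11 in Control and 7 of 10 in pIVCL were at least 2-fold lower, and 1 in Control and 0 in pIVCL were higher, the former being Itgae on 4 UMIs. Xcl1, a chemokine that draws dendritic cells, was at 68.6 CPM in Control and 150 CPM in pIVCL, 0.138 and 0.259 of its level in Cxcr6-positive T cells. Rgs1, a brake on chemokine receptors, was at 0.233 and 0.349 of that level. Ccr2, a receptor that brings cells out of the blood to inflamed tissue, had 0 UMIs in the Control cells, where Cxcr6-positive T cells were at 235 CPM, and 3 UMIs in pIVCL (14.0 against 176 CPM). Zbtb16, the master factor of NKT cells, had no UMI in any of the 84 cells, and Klrb1c was at 13.7 and 23.4 CPM against 211 and 110 CPM.

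Maf, a transcription factor of helper and gamma-delta T cells, was with Ccr2 among the 10 lowest genes, at 13.7 CPM (1 UMI) in Control and 112 CPM in pIVCL. Ckb, a creatine kinase, and Rcbtb2 and Tmem64 were also among them. Igfbp7, Clec4g, F8, Dnase1l3 and Fcgr2b, the remaining 5, are genes of liver sinusoidal endothelium. The summed sinusoidal endothelium list, 10 genes, was at 508 CPM in the Control CD8 cells against 1412 CPM in Cxcr6-positive T cells, and at 824 against 3611 CPM in pIVCL. Endothelial RNA therefore differed between these T cell classes. Its part in the lower values of the 10 lowest genes, Maf among them, and of the residency list was not tested.

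**Figure D2:**
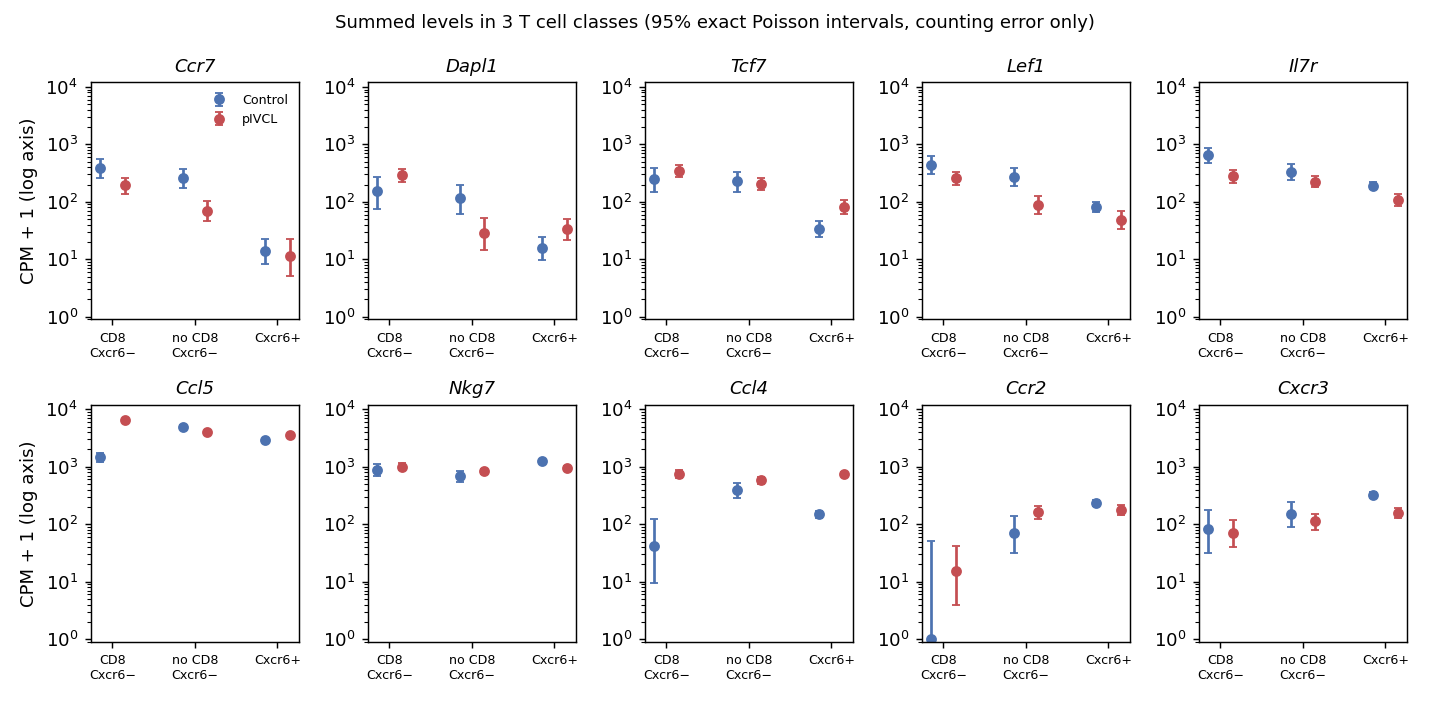
Level of 10 genes (y axis, CPM + 1 on a log scale) in Cxcr6-negative CD8 T cells, Cxcr6-negative T cells with no CD8 UMI, and Cxcr6-positive T cells (x axis) of Control in blue and pIVCL in red, with 95% exact Poisson intervals that cover counting error only. Ccr7 and Tcf7 lie higher in both Cxcr6-negative classes than in Cxcr6-positive T cells, and in the CD8 class Ccl4 stands at 41.2 CPM in Control and 754 CPM in pIVCL.

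The Cxcr6-negative T cells without a CD8 UMI were compared in the same way. In Control, 2.71% of 1329 genes were past 2-fold higher and 8.13% past 2-fold lower in the CD8 cells than in them, and in pIVCL 0.623% and 2.93% of 4334 genes. The naive and central memory list was at 5846 against 4931 CPM in Control and 4860 against 3299 CPM in pIVCL. Of its measured genes, 0 of 15 and 4 of 16 were past 2-fold higher and 0 were lower. The residency list was at 1194 against 1392 CPM and 1302 against 2439 CPM. Dapl1 stood apart in pIVCL, at 290 against 27.7 CPM, a ratio of 10.5 (5.33 to 22.9), beside 1.33 (0.538 to 3.21) in Control. Genes of hepatic stellate cells differed between these classes in Control: that list was at 13.7 CPM in the CD8 cells and 4361 CPM in the other class, with 4 of 4 measured genes past 2-fold lower in the CD8 cells, and its part in the Control counts was not tested. Tyrobp and Fcer1g were lower in the CD8 cells in both libraries, Tyrobp at 0.0816 and 0.163 and Fcer1g at 0.191 and 0.160 of the other class.

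The 84 cells were not uniform. Each was placed by the UMIs of 11 naive genes (among them Ccr7, Lef1, Tcf7, Igfbp4, Dapl1, Actn1, Satb1, S1pr1, Klf2 and Il7r) against 15 effector genes (Ccl5, Nkg7, Gzma, Gzmb, Gzmk, Gzmm, Ccl4, Ccl3, Ifng, Prf1, Klrd1, Klrk1, Klrg1, Cst7 and Ctsw). A cell with more naive UMIs is called naive-leaning and a cell with more effector UMIs effector-leaning, which is a cut through a count per cell and not a cell type. At full depth 9 of 12 Control cells (75.0%) and 34 of 72 pIVCL cells (47.2%) leaned naive, and 3 and 38 leaned effector. Thinned to 800 UMIs, 8 of 12 Control cells (66.7%, interval 34.9% to 90.1%) and 32 of 70 pIVCL cells (45.7%, 33.7% to 58.1%) leaned naive. The intervals overlap, and 1 Control and 9 pIVCL cells lay within 1 UMI of the line, so at 12 Control cells a difference in this share was not detectable. Without Klf2 and Ccl5, 66.7% of thinned Control cells and 54.3% of thinned pIVCL cells leaned naive.

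At full depth 0 Control and 5 pIVCL cells lay within 1 UMI of the line. The naive genes had 2 to 57 UMIs per Control cell (median 29.5) and 0 to 43 per pIVCL cell (median 11). The effector genes had 0 to 166 (median 8) and 0 to 294 (median 10).

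**Figure D3:**
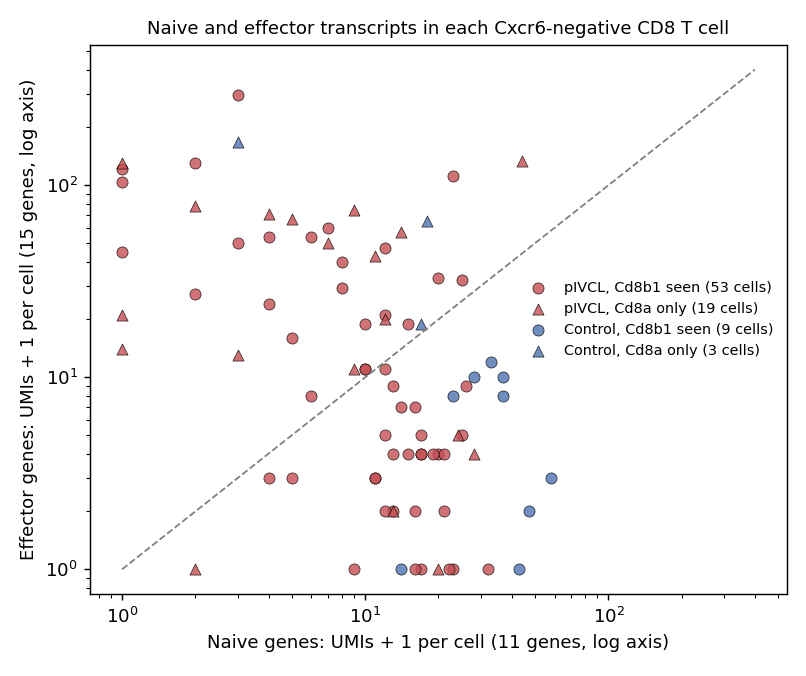
UMIs + 1 of the 11 naive genes (x axis, log scale) against UMIs + 1 of the 15 effector genes (y axis, log scale) in each of the 84 cells at full depth, Control in blue and pIVCL in red, circles for cells with a Cd8b1 UMI and triangles for cells with Cd8a only. The dashed line marks equal UMIs, and the 9 blue circles all lie below it while the 3 blue triangles lie above it.

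In Control the lean followed the CD8 chains. The 9 Control cells with a Cd8b1 UMI all leaned naive and held no UMI of Ccl5, Gzma or Gzmb. The 3 Control cells with Cd8a only all leaned effector and held all 106 Ccl5 UMIs of that library, 66 of them in 1 cell. This rests on 3 cells, and 2 of these 3 cells also held Tyrobp and 2 held Fcer1g, genes of NK and innate-like cells. In pIVCL the chains did not divide the cells this way: of 53 cells with Cd8b1, 29 leaned naive and 24 effector, and 29 held Ccl5, with 910 UMIs in sum. Of the 19 pIVCL cells with Cd8a only, 5 leaned naive and 14 effector, and Tyrobp was seen in 5 of them. The median was 4 Cd8b1 UMIs per Control cell and 1 per shallower pIVCL cell. Some Cd8a-only calls may thus be missed Cd8b1, which was not tested.

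Ccl5, a chemokine that memory and effector CD8 T cells store ready to release, varied widely between cells. It was at 1455 CPM in Control (106 UMIs in 3 cells) and 6517 CPM in pIVCL (1392 UMIs in 41 cells), a ratio of 4.48 (3.68 to 5.51). The highest pIVCL cell held 230 UMIs, 16.5% of the total, and the median over pIVCL cells with Ccl5 was 24. After thinning to 800 UMIs it was seen in 3 of 12 and 30 of 70 cells, against 0 of 132 and 10 of 928 B cells. The B cells, which lack the gene, were at 0 CPM in Control and 46.9 CPM in pIVCL.

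Gzma and Gzmb, cytotoxic granule proteases, lay in few cells. Gzma had 50 UMIs in 1 Control cell and 159 UMIs in 11 pIVCL cells (686 and 744 CPM). Gzmb had 20 UMIs in 1 Control cell and 27 in 8 pIVCL cells (274 and 126 CPM). Each Control value of these proteases is thus that of a single cell. Nkg7, a membrane protein of cytotoxic granules, was broader, with 64 UMIs in 10 Control cells and 213 UMIs in 56 pIVCL cells (878 and 997 CPM), 7 of the Control and 22 of the pIVCL cells being naive-leaning. Ifng, the gene of interferon-gamma, had 17 UMIs in 9 pIVCL cells, all effector-leaning.

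Promoter sequences are shown for 3 cytotoxic genes and, for contrast, 1 naive gene, because RUNX3 and T-box factors are known regulators of the effector program and TCF1 and LEF1 of the naive one. Windows of 250 bases before to 50 after the start came from RefSeq (GRCm38.p6), which held 10 of the 15 effector and 8 of the 11 naive genes. They were searched on both strands for the RUNX core TGTGGT, which on the other strand reads as ACCACA, the T-box motif AGGTGTGA and the TCF/LEF core CTTTGA. The RUNX core was in at least 1 window of 8 of 10 effector genes and of 1 of 8 naive genes (Il7r, after the start), against 16.8% of all 32851 windows. The T-box motif was in 1 effector gene, Nkg7, and in 1.28% of all windows. The TCF/LEF core was in 2 effector genes and 1 naive gene and in 16.0% of all windows. Some genes have several windows (Satb1 has 5), which gives them more chances of a match, and the genes and motifs were chosen with earlier results known. A match describes the letters and is no bound site. The 250 bases before each start follow, 5′ to 3′ on the gene's strand, with RUNX core matches in capitals.
Gzmb, granzyme B, chr14:56262335-56262584, minus strand: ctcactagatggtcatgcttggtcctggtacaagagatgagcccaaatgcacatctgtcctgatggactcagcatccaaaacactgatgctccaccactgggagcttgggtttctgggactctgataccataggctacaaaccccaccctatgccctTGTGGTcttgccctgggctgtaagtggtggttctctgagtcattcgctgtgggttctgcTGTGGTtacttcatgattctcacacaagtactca
Gzma, granzyme A, chr13:113100982-113101231, minus strand: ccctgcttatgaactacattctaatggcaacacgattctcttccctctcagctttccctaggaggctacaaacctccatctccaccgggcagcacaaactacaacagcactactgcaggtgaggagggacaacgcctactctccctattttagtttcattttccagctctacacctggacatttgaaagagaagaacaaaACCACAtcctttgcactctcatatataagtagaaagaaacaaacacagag
Prf1, the pore-forming protein perforin, chr10:61297586-61297835, plus strand: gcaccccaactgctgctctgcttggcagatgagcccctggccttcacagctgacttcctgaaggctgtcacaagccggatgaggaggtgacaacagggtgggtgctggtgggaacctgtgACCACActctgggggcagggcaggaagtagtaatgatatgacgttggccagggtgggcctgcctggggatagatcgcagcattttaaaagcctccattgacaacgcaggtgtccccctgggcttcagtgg
Dapl1, chr2:59484403-59484652, plus strand, with no match: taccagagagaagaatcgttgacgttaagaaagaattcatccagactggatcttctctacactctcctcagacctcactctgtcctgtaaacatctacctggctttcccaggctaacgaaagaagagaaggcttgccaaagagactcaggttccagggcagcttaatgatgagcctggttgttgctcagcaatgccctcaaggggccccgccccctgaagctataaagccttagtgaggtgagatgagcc

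Within pIVCL, the effector-leaning cells also had higher levels of genes of the antigen-experienced memory and residency lists, leaving out the genes that set the lean. The 38 effector-leaning cells (median 2620 UMIs) were compared with the 34 naive-leaning cells (median 2797.5 UMIs) over 1455 genes outside the 26 lean genes, which gave 9.76% of genes at least 2-fold higher, 2.06% lower and a median log2 ratio of 0.15. Cells of 1 library were split here by their own RNA, so the ratios describe what went with the lean and carry no test. Ribosomal protein genes took 25.9% of UMIs in the effector-leaning and 36.1% in the naive-leaning cells.

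Ctla2a, a protease inhibitor made by activated T cells, had the highest ratio among genes seen in at least 5 effector-leaning cells. It had 2 UMIs in 2 naive-leaning cells and 74 UMIs in 26 effector-leaning cells (21.6 and 611 CPM), a ratio of 28.2 (7.54 to 237). Xcl1 had 1 and 31 UMIs (10.8 and 256 CPM), and all but 1 of its 13 cells were effector-leaning. S100a6, a calcium-binding protein of memory cells, was at 54.1 and 553 CPM, a ratio of 10.2 (4.17 to 32.5), and the galectin gene Lgals1 was at 54.1 and 437 CPM, a ratio of 8.08 (3.25 to 25.9). These genes were seen in 2 naive-leaning cells each and in 22 effector-leaning cells each.

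Itgb1, the integrin beta-1 chain, was at 32.5 CPM in naive-leaning and 248 CPM in effector-leaning cells. Itga1, the alpha-1 chain that pairs with it and marks resident T cells, had 0 and 27 UMIs, at least 6.86-fold higher against a floor of 3 UMIs over the naive-leaning cells. Its 27 UMIs lay in 9 cells, and 20 of them in 3 cells. Rgs1 was at 64.9 and 305 CPM, still under the 576 CPM of pIVCL Cxcr6-positive T cells. Of the residency list, 3 of 5 measured genes were past 2-fold higher in the effector-leaning cells, with a median log2 ratio of 1.94. The 3 measured endothelial genes were also past 2-fold higher, with nearly all their UMIs in 3 effector-leaning cells, and the part of endothelial RNA or of missed Cxcr6 in the residency values was not tested.

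Memory genes were higher too. Of 10 measured genes of the antigen-experienced memory list, which holds S100a6, Lgals1 and Itgb1, 6 were past 2-fold higher and none lower, with a median log2 ratio of 1.60. All 8 pIVCL cells with 5 or more UMIs of NK cell genes leaned effector, and their part in the memory and residency values was not tested. Il2rb, the shared beta chain of the IL-2 and IL-15 receptors, was at 141 and 586 CPM, a ratio of 4.17 (2.29 to 8.20), and Ly6c2 at 216 and 619 CPM, a ratio of 2.86 (1.73 to 4.95). Nr4a2, a nuclear receptor switched on by T cell receptor signals, was at 75.7 and 388 CPM, a ratio of 5.12 (2.30 to 13.4), and was seen in 6 and 20 cells. Efhd2, Ube2l3 and Ifitm2 were the other genes of the 10 highest, and 6 effector-leaning cells held all 35 Ifitm2 UMIs of that set.

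The genes that were higher in naive-leaning cells moved less. Emb, a membrane partner of lactate transporters, was at 747 against 305 CPM, and Smc4, a condensin subunit, at 541 against 239 CPM. Vsir, the gene of the checkpoint protein VISTA that keeps naive T cells quiet, was at 238 against 99.0 CPM, and Tsc22d3, a glucocorticoid-induced gene, at 249 against 90.8 CPM. Rapgef6, Nop53, Stk4 and Srpk1 were among the 10 lowest by the effector-leaning over naive-leaning ratio, as was Gsta3, whose abundant source in liver is the hepatocyte. T cell receptor signalling genes were close to even, with 0 of 14 past 2-fold higher, 1 lower and a median log2 ratio of -0.16.

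**Figure D4:**
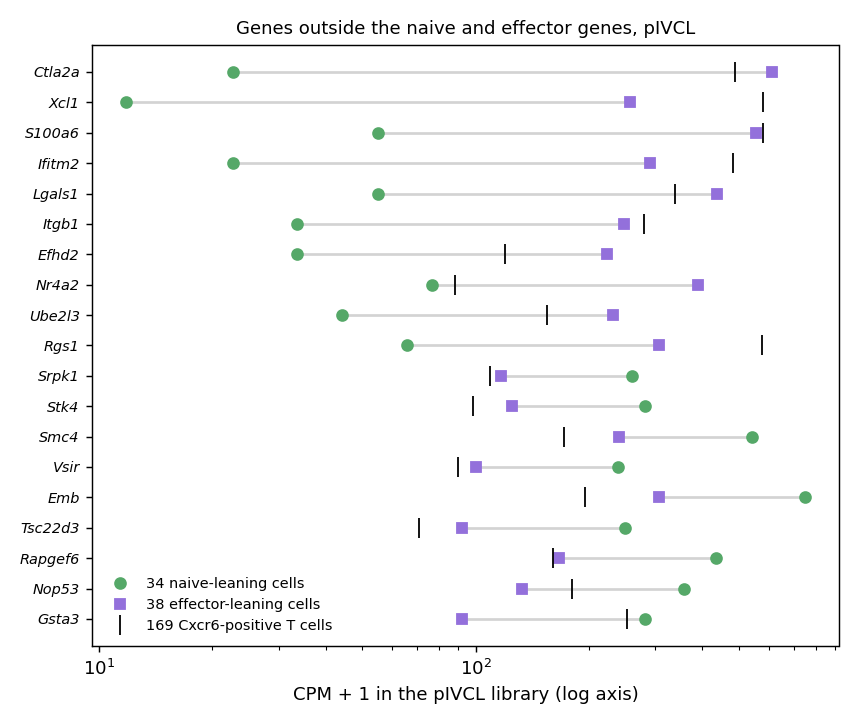
CPM + 1 (x axis, log scale) in the pIVCL library of 10 high and 9 low genes by the effector-leaning over naive-leaning ratio (y axis), with green circles for 34 naive-leaning cells, purple squares for 38 effector-leaning cells and black ticks for 169 Cxcr6-positive T cells. Ctla2a stands at 21.6 CPM in naive-leaning and 611 CPM in effector-leaning cells, and the 9 lower genes span narrower gaps than the 10 upper ones.

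The pIVCL over Control comparison within the Cxcr6-negative CD8 cells asked what differed in these cells in the congested liver. The Control side rests on 12 cells and 72872 UMIs. Of 2021 genes measured, 187 (9.25%) were at least 2-fold higher and 69 (3.41%) at least 2-fold lower in pIVCL, with a median log2 ratio of 0.01. Of the 187 higher genes, 111 had 3 UMIs or fewer in Control and 61 were past 2-fold higher in B cells as well. Of the 69 lower genes, 16 had more than 50% of their Control UMIs in 1 cell.

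Effector chemokines stood out in pIVCL. Ccl4, a chemokine of activated T cells, had 3 UMIs in 3 Control cells and 161 UMIs in 21 pIVCL cells (41.2 and 754 CPM), a ratio of 18.3 (6.15 to 89.7). Ccl3, its neighbour in sequence and function, had 1 and 58 UMIs (13.7 and 272 CPM), a ratio of 19.8 (3.41 to 795), and 39 of the 58 UMIs lay in 3 cells. The Ccl4 level of pIVCL over that of pIVCL Cxcr6-positive T cells was a ratio of 1.01 (0.837 to 1.20), while Control lay at 0.280 of its Cxcr6-positive T cells.

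Of the 24 genes of the cytotoxic effector list 11 were measured. Ccl3, Ccl4 and Ccl5 were past 2-fold higher and Gzmb, with its Control UMIs in 1 cell, lower, beside 9.25% and 3.41% of all genes. The list's median log2 ratio was 0.30, beside 0.01 over all genes. The list's summed level was 4446 CPM in Control and 10876 CPM in pIVCL, a ratio of 2.45 (2.18 to 2.76), of which Ccl5 gave 1392 of 2323 pIVCL UMIs. One Control cell held 52.2% of the Control UMIs of this list. Without Ccl5 the ratio was 1.46, and among cells with a Cd8b1 UMI, which drops the 3 effector-leaning Control cells, it was 8.08. Per cell, the list's median was 1570 CPM in Control (0 to 41811) and 3372 CPM in pIVCL (0 to 94833), so the libraries overlap. Within effector-leaning cells, 3 in Control, the Ccl5 ratio was 2.25 (1.84 to 2.77) and that of Nkg7 0.778 (0.548 to 1.13). Gzma lay at 0.548 (0.397 to 0.770) and Gzmb at 0.233 (0.126 to 0.438), each with its Control UMIs in 1 cell, and Gzmk had 0 and 9 UMIs. These genes are among those that set the lean.

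The naive and central memory list differed less. It was at 5846 CPM in Control and 4860 CPM in pIVCL, a ratio of 0.831 (0.742 to 0.933). Beside 9.25% and 3.41% of all genes, 0 of 15 measured genes were past 2-fold higher and 1 was lower. That gene was Il7r, the receptor of the T cell survival factor IL-7, which was at 645 CPM in Control (47 UMIs in 11 of 12 cells) and 276 CPM in pIVCL (59 UMIs in 30 of 72 cells), a ratio of 0.428 (0.287 to 0.642). Ccr7 was at 384 and 192 CPM, a ratio of 0.50 (0.302 to 0.839), while Tcf7 was at 247 and 346 CPM with a ratio interval that includes 1. The list thus held genes on both sides. Klf2, the factor that keeps S1pr1 on, was at 1413 and 932 CPM, and within naive-leaning cells alone at 1809 and 1050 CPM, a ratio of 0.580 (0.432 to 0.779). Within effector-leaning cells it lay the other way, at 431 CPM (9 UMIs in the 3 Control cells) and 842 CPM, a ratio of 1.95 (0.990 to 4.40). In the naive-leaning cells Tcf7 was at 269 and 509 CPM, a ratio of 1.89 (1.02 to 3.71). Klf2 and Tcf7 are among the genes that set the lean, so their levels within a leaning are not independent of the split.

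Of 10 measured cytokine receptor genes 1 was past 2-fold higher and 2 lower, beside 9.25% and 3.41% of all genes, and 7 of the 10 lay below 0 with a median log2 ratio of -0.37. Il2rb was at 178 and 393 CPM, a ratio of 2.20 (1.22 to 4.31). Il2rg, the common gamma chain that pairs with it and with Il7r, was at 316 CPM in Control (23 UMIs in 9 cells) and 126 CPM in pIVCL (27 UMIs in 23 cells), a ratio of 0.40 (0.221 to 0.731). Il7r and Il2rg were also lower in pIVCL among Cxcr6-positive T cells, at 190 and 108 CPM and at 263 and 144 CPM.

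Among T cell receptor signalling genes, 1 of 14 was past 2-fold higher and 1 lower, beside 9.25% and 3.41% of all genes. Zap70, the kinase that reads the receptor, was the higher one at 41.2 and 103 CPM, on 3 Control UMIs. Cd27, a costimulatory receptor of naive and memory cells, was the lower one at 343 and 131 CPM, a ratio of 0.382 (0.215 to 0.683), but with each cell thinned to 800 UMIs its log2 ratio was 0.39, the other way. Lck, the kinase that rides on CD8, was at 563 and 346 CPM, and Cd28 at 137 and 253 CPM with an interval that includes 1.

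Of the antigen-experienced memory list, 1 of 12 measured genes was past 2-fold higher and 2 were lower, beside 9.25% and 3.41% of all genes. Vim, the intermediate filament vimentin, was at 878 and 309 CPM, a ratio of 0.352 (0.246 to 0.504), but 24 of its 64 Control UMIs lay in 1 cell. Anxa2, a membrane-binding annexin, was at 329 and 79.6 CPM, and 14 of its 24 Control UMIs lay in 1 cell. The other genes among the 10 lowest were Klf13, Metap2, Zfp292, Kcnq1ot1, Tmed2, Ube2d2a and Vps28. With each cell thinned to 800 UMIs the log2 ratio of Vps28 was 1.02, past 2-fold the other way. Klf13, a zinc finger factor, was at 384 and 103 CPM, a ratio of 0.268 (0.146 to 0.486), and was spread over 10 Control cells.

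Nr4a2 was the measured gene of the inhibitory receptor and exhaustion list, at 27.4 CPM in Control (2 UMIs) and 253 CPM in pIVCL (54 UMIs in 26 cells), a ratio of 9.21 (2.43 to 78.0). The checkpoint receptors of that list did not reach 20 UMIs. Nr4a2 is also an early response gene, and the dissociation stress list, genes that cell isolation can switch on, was higher as a whole. Of its 16 measured genes, 5 were past 2-fold higher, beside 9.25% of all genes. The list had a median log2 ratio of 0.78 and a summed ratio of 1.42 (1.27 to 1.59). The same list was at a ratio of 1.86 in Cxcr6-positive T cells and 1.32 in B cells. Among its genes Zfp36, which destabilises cytokine mRNA, was at 54.9 and 239 CPM (with each cell thinned to 800 UMIs, a log2 ratio of -0.077), and Dusp1, a MAP kinase phosphatase, at 124 and 360 CPM. Its part in the Nr4a2, Ccl3 and Ccl4 values was not tested.

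Interferon and antigen presentation genes were close to even in sum. None of 9 measured interferon-gamma response genes, 4 type I interferon response genes or 14 MHC class I genes was past 2-fold in either direction. Over all genes measured, 9.25% were past 2-fold higher and 3.41% lower, so none among so few genes is not far from that share. Their summed ratios were 1.02 (0.832 to 1.27), 0.866 (0.699 to 1.08) and 1.03 (0.937 to 1.13). Their median log2 ratios were -0.08, -0.39 and 0.05, over the measured genes of lists of 20, 24 and 14 genes. B2m, the light chain of MHC class I, was at 1468 and 2111 CPM, a ratio of 1.44 (1.16 to 1.79), and 52 of its 451 pIVCL UMIs lay in 1 cell. Glycolysis genes were lower in sum, a ratio of 0.720 (0.604 to 0.862), with 0 of 9 past 2-fold and a median log2 ratio of -0.38. Among cells with a Cd8b1 UMI the median was 0.15, the other way. Aldoa, a glycolytic aldolase with 12 of its 25 Control UMIs in 1 cell, also turned, from a log2 ratio of -0.84 to 0.15.

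Cell cycle genes were higher in sum, a ratio of 1.81 (1.43 to 2.31), but 1 pIVCL cell held 42.9% of the pIVCL UMIs of that list. Top2a had 0 UMIs in Control and 32 in pIVCL, of which 28 lay in 1 cell, and all 22 UMIs of Ube2c came from 1 cell. Mki67, a marker of dividing cells, was seen in 4 of 72 pIVCL cells and 0 of 12 Control cells, which allows up to 25% of Control cells with a UMI and does not limit the share of dividing cells.

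**Figure D5:**
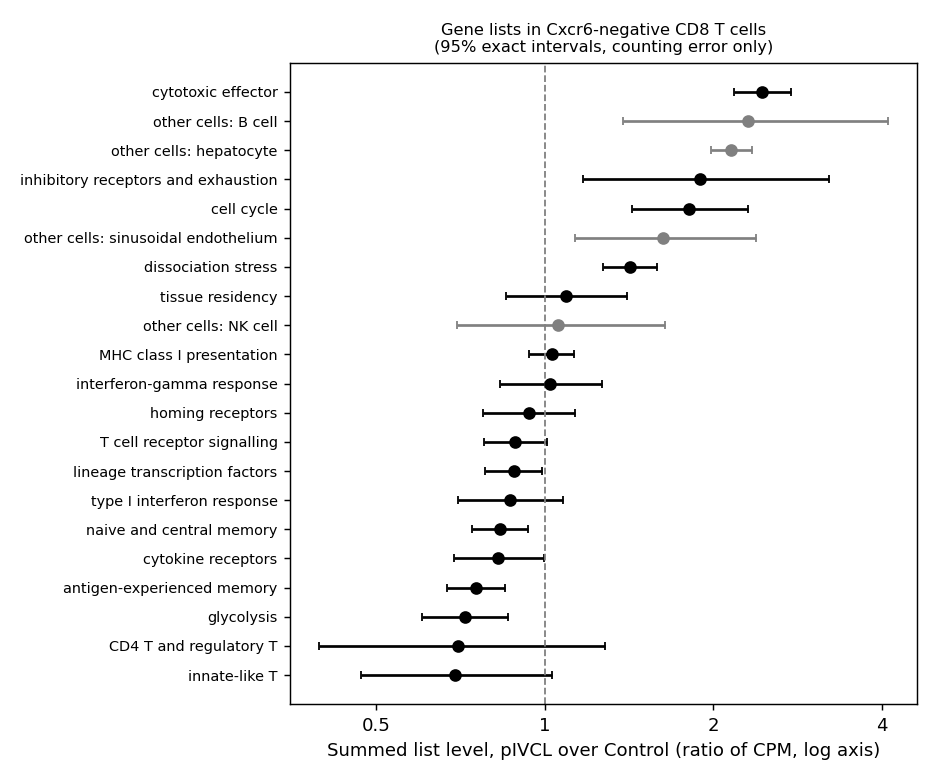
Ratio of the summed level of each gene list, pIVCL over Control (x axis, log scale), in Cxcr6-negative CD8 T cells, with 95% conditional exact intervals that cover counting error only. Black points are T cell and pathway lists and grey points are lists of other cell types, and the cytotoxic effector list has the highest of the ratios drawn at 2.45 while the naive and central memory list is at 0.831.

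Homing receptors differed little in sum, a ratio of 0.937 (0.776 to 1.13). Cxcr3, the receptor of CXCL9, the endothelial chemokine that the study is named for, was at 82.3 CPM in Control (6 UMIs in 2 cells) and 70.2 CPM in pIVCL (15 UMIs in 13 cells), a ratio of 0.853 (0.313 to 2.68). This count cannot show a difference of 2-fold. Cxcr6-positive T cells had more Cxcr3, at 322 and 157 CPM, so the Cxcr6-negative CD8 cells were at 0.256 (0.0932 to 0.562) and 0.447 (0.242 to 0.772) of them. Of the cells with Cxcr3, 2 Control and 9 pIVCL cells leaned effector. Itgal, the alpha chain of the integrin LFA-1, was the homing gene past 2-fold higher in pIVCL, at 41.2 and 140 CPM, with 3 Control UMIs.

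RNA of other liver cells was present in these cells and differed between libraries. The hepatocyte list took 0.885% of UMIs in the Control cells and 1.90% in the pIVCL cells, a ratio of 2.15 (1.98 to 2.34). Of its 16 measured genes, 10 were past 2-fold higher, beside 9.25% of all genes. B cells, which do not make these genes, showed 1.46% and 3.45%, a ratio of 2.36. Scd1, Gstm1, Fgg, Tat, Wfdc21, Apoc3 and Fbp1, which are among the 10 highest genes, were read beside B cells. Apoc3, an apolipoprotein of hepatocytes, was at 206 and 1124 CPM here, and at 477 and 1846 CPM in B cells. Scd1, a lipid desaturase, was at 54.9 and 566 CPM here and 347 and 1121 CPM in B cells. The 3 remaining genes of the 10 highest were Ccl4, Ccl3 and Nr4a2, of which Ccl4 was at 0 and 14.3 CPM in B cells and Nr4a2 at 2.02 and 9.66 CPM.

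Transcripts of other cell types lay in a few cells. At least 5 UMIs of the sinusoidal endothelium list were seen in 1 Control cell (35 of the library's 37 UMIs) and in 3 pIVCL cells (174 of 176), all 3 effector-leaning. Macrophage genes reached 5 UMIs in 0 and 3 cells, B cell genes in 1 and 2, and NK cell genes in 3 and 8, and the cells with NK genes all leaned effector. Without the cells with 5 or more endothelial UMIs the ratio of shares of T cells was 3.94 and the effector list ratio 2.12. Cells with no UMI of 12 markers of B cells, macrophages, endothelium, dendritic cells and neutrophils numbered 11 Control and 60 pIVCL cells, with ratios of 3.73 and 2.53.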

How the data were processed

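Droplet single-cell RNA sequencing was measured in 1 Control and 1 pIVCL library. The deposited matrices hold UMI counts per gene and barcode, made by the authors. Per the submitters' processing notes the tool was Cell Ranger 3.0.2 and the genome build mm10. Every barcode held at least 500 UMIs. The cells and gene lists were chosen with earlier results of these data known.

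UMIs were summed over the chosen cells and given as CPM. Log2 ratios had 20 CPM added, over genes with at least 20 summed UMIs, and 2-fold was the size threshold. Intervals are 95% and exact (Poisson for levels, Clopper-Pearson for shares, conditional binomial for ratios), cover counting error only, and treat UMIs of 1 cell as independent, which they are not. Where a group had no UMI, 3 UMIs over that group served as the floor. No doublet caller was run; the Cd79a and Clec4f conditions and the alternatives without cells of high UMIs or with other cells' markers stand in its place. Cells were thinned to 800 UMIs for detection and lean.

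Named genes were the 10 highest and 10 lowest in each comparison with at least 30 UMIs and 50 CPM in at least 5 cells, leaving out mitochondrial, ribosomal, unnamed and receptor segment genes, the rule's genes and genes 10 times higher in B, Kupffer or hepatocyte cells. A few genes are not reported here. From each list, the 2 to 4 genes of largest ratio were added. Other names (such as Klf2 within leanings, Lck, Cd28, B2m and Zbtb16) were chosen after their values were seen. Alternatives changed the cell filters, scaling, CPM added, UMI minimum and depth. The interval and fold code was tested on simulated data. There, 41% of genes set to a 2-fold change and 4.49% of unchanged genes passed the 2-fold threshold. Python 3.11.15, numpy 2.4.6, scipy 1.17.1 and matplotlib 3.10.9 were used.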

Additional observations from a re-analysis of the deposited data

Results flagged for a closer look

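The summed naive and central memory list was lower in pIVCL than in Control among Cxcr6-negative CD8 T cells, a ratio of 0.831, and higher among Cxcr6-positive T cells, a ratio of 1.47. The difference was not tested, since each group is 1 library. The lineage transcription factor list went the same ways, at 0.880 and 1.11, and was likewise not tested.

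The cytotoxic effector list was higher in pIVCL among Cxcr6-negative CD8 T cells, a ratio of 2.45, and lower among Cxcr6-negative T cells with no CD8 UMI, a ratio of 0.809. The antigen-experienced memory list ran the other way, at 0.754 in the CD8 cells and 1.23 in the cells with no CD8 UMI. Neither difference was tested. The Control values of the CD8 cells rest on 12 cells, of which 1 held 52.2% of the effector list's UMIs.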

How the results depend on the processing

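With 1 library per group no replicate could be left out, and 12 Control cells limit every comparison of libraries. No paired analysis was possible because each group has 1 library and the replicate numbers only follow accession order. The ratio of shares stayed between 3.00 and 4.34 over 10 alternatives. The 3.00 is the share of all kept cells, and the lowest ratio for shares of T cells was 3.45, with Cd8b1 required. With Cd8b1 required, the pIVCL share was 13.9%, the naive list ratio 0.694 and the effector list ratio 8.08. The naive-leaning share of Control cells ran from 63.6% to 88.9%, the highest with Cd8b1 required. In pIVCL it ran from 41.7%, thinned to 500 UMIs, to 54.3%, without Klf2 and Ccl5. The effector ratio was 2.12 without the cells of 5 or more endothelial UMIs and 1.46 without Ccl5, 2 alternatives added after seeing the data. The counts of genes past 2-fold, 187 higher and 69 lower, became 110 and 35 with 50 CPM added, 472 and 190 from 10 UMIs, 60 and 12 from 50 UMIs, 983 and 573 from 1 UMI, and 70 and 17 with cells thinned to 800 UMIs. The higher share of these genes was 73.0%, against 83.3% from 50 UMIs and 63.2% from 1 UMI.

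A sign change was counted only where the interval of the main value left out equal levels. For list medians this was the interval of the summed ratio. By that count, log2 ratios that changed sign with cells thinned to 800 UMIs were those of Cd27 (0.39), Dapl1 (-0.43), Egfl7 (1.48), Runx3 (0.33), Vps28 (1.02) and Zfp36 (-0.077). With Cd8b1 required, Aldoa (0.15), Gzmb (2.59) and the glycolysis median (0.15) changed sign, Gzmb because its Control cell drops out. Bst2 (0.41) did so without the endothelial cells. The medians of the lineage transcription factors (0.11 from 10 UMIs), the naive list (0.0088 without other cells' markers) and sinusoidal endothelium (-0.24 with cells weighted equally) also did. Other causes were not tested. For single genes and lists, 1314 alternatives stayed within the size of the counting interval, 50 moved beyond it and 13 changed sign by that count. Some of the 1314 and 50 may have changed sign where the interval included equal levels. Genes with no UMI in 1 library could not count as moved in size. For the main values 86 stayed within the interval, or for gene counts within a set fold, and 15 moved.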
